A study of Mus musculus with 4 samples.

Results

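Tumours grown from CT26 cells that overexpress IL-34 were compared with tumours grown from IL-34-deficient CT26 cells, all from the arm treated with an anti-PD-1 antibody. CT26 is a mouse colon carcinoma line of BALB/c origin, and BALB/c is the strain background given for every sample. The compared libraries carried either the deficiency or the overexpression of IL-34 and had both received anti-PD-1. A second pair of libraries, from untreated tumours of the same altered lines, is given side by side. RNA-seq was performed on total RNA of whole tumours, with 1 library in each of the 4 groups. The number of animals behind a library, the length of treatment and whether a line was a single clone are not stated in the labels. No line with unaltered IL-34 was among the 4 libraries, so an effect of losing IL-34 and an effect of overexpressing it cannot be told apart.

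Genes were members of the comparison when their level was at least 1 FPKM, a read density scaled by transcript length and library size, in at least 1 of the treated libraries. This held for 11787 of 23745 gene rows, and for 11735 symbols once rows of short RNAs were left out and rows of a symbol were reduced to 1. Of these, 11159 passed in both libraries, 425 passed only through the deficient library and 151 only through the overexpressing one. Each ratio below is the log2 of FPKM + 1 in the overexpressing library over FPKM + 1 in the deficient library, so a negative value is a lower level with overexpressed IL-34. A gene is counted as lower or higher when this ratio is at or beyond -1 or 1. With 1 library a side there is no replicate error, and all values describe these libraries without a test. At the minimum, Rpusd2 passed at 1.00033 FPKM in its higher treated library while Zfp433 did not at 0.99961. At the size limits, Ltc4s was counted as higher at 1.0016 and Ccng2 was not at 0.9982, and Ckmt2 was counted as lower at -1.0071 and Hp was not at -0.9996.

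IL-34 is a cytokine that binds the CSF-1 receptor, the receptor on which monocytes and macrophages depend for survival and differentiation. PD-1 is an inhibitory receptor of activated T cells, and antibodies against it release T cells that then secrete interferon-γ. Interferon-γ in turn raises MHC molecules, guanylate-binding proteins and the chemokines CXCL9 and CXCL10 in tumour cells and macrophages, and tumours that answer to such antibodies are known for this pattern. In RNA from whole tumours, fewer cells of a type and less RNA per cell cannot be told apart.

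The deficient anti-PD-1 library stood apart from the other 3 before any immune gene is considered, because it held transcripts of skin. It also had the highest level of most muscle genes, of which the overexpressing anti-PD-1 library had the lowest. Krt10, a keratin of the upper epidermis, was at 31.2 FPKM there, 0.458 in the overexpressing anti-PD-1 library and 1.44 and 0.649 in the untreated deficient and overexpressing libraries. Krt14, a keratin of basal epidermis, was at 18.5 FPKM there and at no more than 0.293 FPKM elsewhere. Both keratins were thus at no more than 1.44 FPKM in every library but this one. The summed level of the 16 epidermis and hair follicle genes was 146 FPKM in it against 3.20, 7.83 and 2.44 FPKM in the overexpressing anti-PD-1, untreated deficient and untreated overexpressing libraries. In the overexpressing anti-PD-1 library 5 of them were listed at 0, Krt1, Krt15, Krt77, Lor and Dsg1a. All 13 members that passed did so only through the deficient library, so a high level there was part of how they entered the comparison. In the untreated overexpressing library 9 were listed at 0.

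Muscle genes were present in all 4 libraries at different levels. Acta1, the actin of skeletal muscle, was at 143 FPKM in the deficient anti-PD-1 library, 55.3 and 39.0 in the untreated deficient and overexpressing libraries and 3.27 in the overexpressing anti-PD-1 library. It was the lowest ratio of the whole comparison, -5.08. Myl1, a myosin light chain, Ckm, the creatine kinase of muscle, and Tnnc2, a troponin of fast fibres, had ratios of -4.43, -4.17 and -4.13. The 18 skeletal muscle genes summed to 579.8, 217, 176 and 66.8 FPKM in the same order, with none listed at 0, and Eno3 alone gave 43.1 FPKM of the last sum. Thus the overexpressing anti-PD-1 library was the lowest of 4 in 16 of the 17 members that passed, against 20.7% of all genes. The deficient one was the highest in 16, against 31% of all genes. Of the 17 muscle genes that passed, 16 were lower by size, and 8 passed through the deficient library only. Car3, a carbonic anhydrase abundant in fat and muscle, was at 25.6 against 0.715 FPKM, whereas Fabp4, a fatty acid carrier of fat cells, endothelium and macrophages, was at 41.2 against 58.4 FPKM. Xist was at 7.996 and 4.95 FPKM and 4 genes of the Y chromosome were listed at 0 in every library. The skin and muscle genes move with the same library as the immune genes below, and their part in the immune differences was not tested.

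Il34 (mm10 chromosome 8, 110741829 to 110805903) was at 3.02 FPKM in the deficient and 104 FPKM in the overexpressing anti-PD-1 library, and at 3.52 and 104 FPKM in the untreated ones. Both overexpressing libraries were therefore high and both deficient ones low, as labelled. Its ratio, 4.71, was the highest of all genes. Csf1r, which encodes the receptor of IL-34, was at 118 against 70.4 FPKM (log2 -0.73), with 78.3 and 79.7 in the untreated deficient and overexpressing libraries. Csf1, the other ligand of that receptor, had a ratio of -0.36, and Sdc1, which encodes the IL-34-binding proteoglycan syndecan-1, one of 0.03. Ptprz1, whose product can also bind IL-34, had 0 FPKM in all 4 libraries.

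Across all 11735 genes the median ratio was 0.04, the 5th percentile was -0.68 and the 95th was 0.39. Ratios were above 0 for 6664 of these genes and below 0 for 5071. In all, 278 genes (2.37%) were lower and 46 (0.392%) were higher with overexpressed IL-34. Of the 278, 115 passed the minimum only through the deficient library and 163 in both, and of the 46, 9 passed only through the overexpressing library and 37 in both. Each of the 278 had its highest level of the 4 libraries in the deficient anti-PD-1 library, which was the highest for 31% of all genes, and 201 had their lowest in the overexpressing anti-PD-1 library, the lowest for 20.7% of all genes. Of the 46, 43 had their lowest level in the deficient anti-PD-1 library, which was the lowest for 45.8% of all genes. For 31 of the 46 the overexpressing anti-PD-1 library was the highest, as it was for 19.4% of all genes. Because the 278 and the 46 were chosen by the treated values, these ranks were partly set in advance. The counts changed with the deficient library used: with the untreated deficient library in place of the treated one, 45 genes were lower and 9 higher. This alternative was chosen after seeing the data and also changes the treatment on that side. With that replacement the MHC class II list had 1 gene lower and a median of -0.79, the CD4 and CD8 coreceptors 1 lower and -0.79, the T cell-attracting chemokines 0 and -0.21, the pan-macrophage genes 0 and -0.10 and the complement genes 0 and -0.11. The skeletal muscle list had a median of -2.001 with 13 lower, and the hypoxia list had 0 higher and a median of -0.04. The granzyme C to G genes had 0 higher and a median of 0.48 with that replacement, the mast cell genes a median of 0.32 and the 38 ribosomal protein genes one of -0.08. In the untreated pair, which shares no library with the treated pair, 11 of 11466 genes (0.0959%) were lower and 14 (0.122%) higher.

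**Figure D1:**
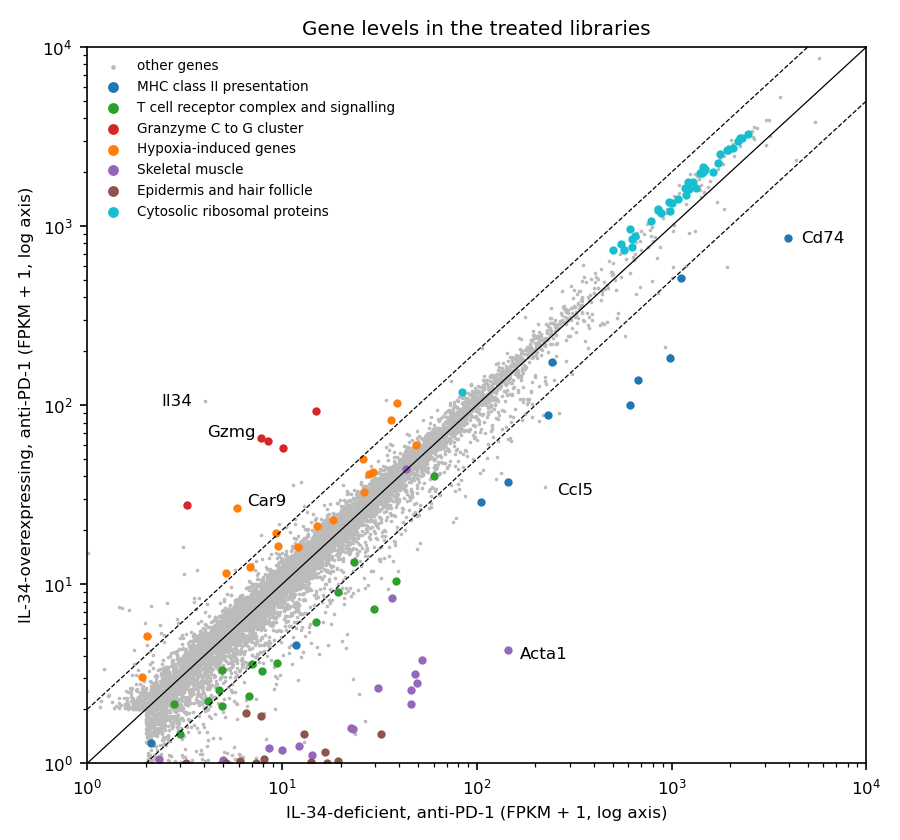
Level of each of the 11735 genes in the deficient (x) and overexpressing (y) anti-PD-1 libraries, as FPKM + 1 on log axes, 1 point a gene, with the line of equal levels and dashed lines at log2 ratios of 1 and -1. Most MHC class II, muscle and epidermis genes and 9 T cell receptor genes lie below the lower dashed line, while Il34, the granzyme C to G genes and Car9 lie above the upper one and ribosomal protein genes lie just above equality.

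Genes of antigen presentation by MHC class II, the molecules that show peptides to CD4 T cells, were lower in 9 of the 11 that passed. H2-Eb1, a class II beta chain, was at 609.9 FPKM in the deficient and 98.7 in the overexpressing anti-PD-1 library, against 202 and 179 in the untreated deficient and overexpressing libraries. H2-Ab1, the other beta chain, was at 976 and 183 FPKM, against 332 and 309.9. H2-Aa, an alpha chain, was at 668 and 138 FPKM, against 260.2 and 248. For each chain the treated libraries were the extremes, and the untreated pair lay between them with nearly equal values. Cd74, the invariant chain that guards the peptide groove, was at 3978 against 852 FPKM (log2 -2.22), and its difference of -3126 FPKM was the largest of any gene in the downward direction. The peptide-exchange chains H2-DMb2, H2-DMb1 and H2-DMa had ratios of -1.96, -1.87 and -1.40. Ciita, the transactivator that switches class II genes on, was at 10.9 against 3.61 FPKM (log2 -1.36), and Ctss, the protease that trims the invariant chain, at 1116 against 512. Of 13 genes on the list, 11 passed, 1 only through the deficient library, 9 were lower and 0 higher, with a median of -1.87 beside -0.12 in the untreated pair. Summed, the list made up 1.65% of all FPKM in the deficient anti-PD-1 library, 0.407% in the overexpressing one and 0.607% and 0.588% in the untreated deficient and overexpressing libraries.

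The promoter of H2-Eb1 is shown because its gene had the lowest ratio of the class II list. The window holds 250 bases before the start and 50 from the start on, read from RefSeq on GRCm38.p6, plus strand, chr17:34305617-34305916. Capitals mark the 5 letters ATTGG or their reverse complement, the inverted CCAAT box known from the Y element of class II promoters.
H2-Eb1: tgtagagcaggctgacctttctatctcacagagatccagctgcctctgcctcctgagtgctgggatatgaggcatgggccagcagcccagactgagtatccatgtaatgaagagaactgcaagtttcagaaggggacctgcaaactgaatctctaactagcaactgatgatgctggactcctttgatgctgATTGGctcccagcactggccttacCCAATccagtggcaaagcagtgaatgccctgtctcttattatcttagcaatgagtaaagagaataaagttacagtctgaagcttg
ATTGG was found on either strand in 6 of 8 class II promoters with a window, against 38.8% of the 8972 members with one. A match of these letters describes the window and is not a site shown to be used.

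Class I presentation differed less. B2m, the light chain of class I molecules, was at 5418 against 3794 FPKM (log2 -0.51), H2-K1, a heavy chain, at 525 against 306 (-0.78) and Tap1, a peptide transporter, at 180.1 against 101 (-0.83). Of the list only H2-T23, the non-classical heavy chain known as Qa-1, was past the size, at 309 against 147 FPKM. All 16 genes of the list had negative ratios, as had 5071 of all 11735 genes, and their median was -0.60. All 16 were highest in the deficient anti-PD-1 library, as were 31% of all genes. The 5 immunoproteasome genes, which shape peptides for class I, had a median of -0.67 with 0 past the size, while the 21 constitutive proteasome genes had a median of -0.00. Interferon-inducible and constitutive subunits therefore lay at different ratios in these libraries.

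T cell genes were lower in the overexpressing anti-PD-1 library, by size in 9 of 16 receptor genes and in all 3 coreceptors. Cd3e, a signalling chain of the CD3 complex, was at 28.5 FPKM in the deficient and 6.25 in the overexpressing anti-PD-1 library, against 12.8 and 9.69 in the untreated deficient and overexpressing libraries. Cd8a, the coreceptor of cytotoxic T cells, was at 20.2 and 3.42 FPKM, against 8.61 and 5.77. Cd4, the coreceptor of helper T cells, was at 4.57 and 1.52 FPKM, against 1.57 and 1.38. All 3 were highest in the deficient anti-PD-1 library, and for Cd3e and Cd8a the overexpressing anti-PD-1 library was the lowest. Ratios were -2.03, -2.26 and -1.15, and Cd8b1, the partner of Cd8a, had -2.04. Of 18 genes on the T cell receptor list 16 passed, 9 were lower (Cd3e, Cd3d, Cd3g, Cd2, Cd6, Lck, Zap70, Lat and Ubash3a) and 0 higher, with a median of -1.07 (-0.61 with a pseudocount of 5) beside -0.24 in the untreated pair. Thy1, which fibroblasts also express, was at 59.1 against 39.4 FPKM.

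All 3 genes of the PD-1 axis had negative ratios, 2 of them past the size. Pdcd1, the gene of PD-1 itself, was at 13.1 FPKM in the deficient and 3.68 in the overexpressing anti-PD-1 library, and at 7.56 and 4.92 in the untreated ones. Pdcd1lg2, which encodes the ligand PD-L2, was at 8.18 and 1.00045 FPKM, against 1.84 and 1.72, so that only the deficient anti-PD-1 library was high. Cd274, which encodes PD-L1, was at 46.8 and 26.9 FPKM, against 22.8 and 21.0, and its ratio of -0.77 was within the size. Among the other inhibitory receptors, Lag3, which binds MHC class II, was at 19.3 against 3.82 FPKM (log2 -2.07), Tigit at 12.8 against 4.44 (-1.35) and Havcr2, which encodes TIM-3, at 15.0 against 6.93 (-1.01). Of 8 such genes 6 passed, with 3 past the size and a median of -0.96. All 6 were highest in the deficient and lowest in the overexpressing anti-PD-1 library, against 31% and 20.7% of all genes. Ctla4 had a ratio of -0.92. Costimulatory genes had a median of -0.69 over 11 members with only Cd27, a receptor of the TNF family, lower by size, and Tnfrsf9, which encodes the activation receptor 4-1BB, stood on the other side at 19.5 against 34.7 FPKM.

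Regulatory T cell genes were at low levels. Foxp3, their defining factor, did not pass the minimum, at 0.981 and 0.880 FPKM, and among the 4 that passed, Il10 was lower at 2.31 against 0.507. Of the 4, 2 passed only through the deficient library, Il10 among them. The median was -0.75 over the 4 and -0.43 over the 2 that passed in both. Il10 is also made by macrophages. B cell and plasma cell genes passed for 3 of 12, all only through the deficient library, with Cd22, an inhibitory receptor of B cells, lower (-1.10). Lymphocyte cytokine and receptor genes had a median of -0.87 over 15 genes, with Il18r1 (-1.36), Il21r (-1.17), Ebi3 (-1.16), Il2rg (-1.03) and Il2rb (-1.01) lower and 0 higher.

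Cytotoxic genes were split. Nkg7, a membrane protein of cytotoxic granules, was at 74.3 FPKM in the deficient and 21.4 in the overexpressing anti-PD-1 library, against 29.6 and 25.1 in the untreated ones, and was lower by 3.48-fold. Ctsw, a protease of cytotoxic cells, Cst7, an inhibitor of granule proteases, and Gzmk, a granzyme of memory-like T cells, had ratios of -1.58, -1.15 and -1.09. In contrast Gzmb, the main death-inducing protease, was at 96.2 and 99.1 FPKM, against 70.7 and 92.9, and Gzma was at 50.8 and 64.2 FPKM, against 41.2 and 64.6. Prf1, the pore-forming perforin, was at 33.3 against 28.4. These 3 effectors had ratios of 0.04, 0.33 and -0.22, and Gzmb and Gzma were lowest in the untreated deficient library. Over 11 genes 4 were lower, 0 higher and the median was -0.96, or -0.41 with a pseudocount of 5 and -0.52 with a minimum of 5 FPKM. Of the 11, 2 passed only through the deficient library, and the 9 that passed in both had a median of -0.81.

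Granzymes C to G were higher in all 5 genes that passed. Gzmd was at 6.83 FPKM in the deficient and 64.3 in the overexpressing anti-PD-1 library, and at 46.0 and 136 in the untreated deficient and overexpressing libraries. Gzmc was at 13.9 and 91.3 FPKM, against 49.95 and 107. Gzme, Gzmf and Gzmg had treated values of 2.27 and 26.8, 9.15 and 56.5, and 7.47 and 62.4 FPKM. All 5 were lowest in the deficient anti-PD-1 library and highest in the untreated overexpressing one. Treated ratios ran from 2.50 (Gzmf) to 3.08 (Gzme) and untreated ratios from 1.09 (Gzmc) to 1.56 (Gzme), so these 5 were past the size in both pairs. None was past it between the overexpressing anti-PD-1 and the untreated deficient library. Besides them only Il34 and BC002163 were higher by size in both pairs, and only Fam25c was lower in both. These granzymes are neighbours on chromosome 14, in a run from 55765962 to 56234656 that starts with Ltb4r1, and they are close copies, so reads shared among them make the value of any single member uncertain. Gzmn of the same cluster was listed at 0 in the deficient and at 0.0284 FPKM in the overexpressing anti-PD-1 library.

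Natural killer genes followed the T cell genes in part. Klrc1, Klrd1 and Klrk1, which encode NKG2A, CD94 and NKG2D and are carried by natural killer cells and activated CD8 T cells, had ratios of -1.91, -1.41 and -1.24. Ncr1, a receptor more restricted to natural killer cells, was at 10.9 against 6.80 FPKM (-0.61), and Eomes, a transcription factor of both cell types, at 2.24 against 2.59. Tbx21, the type 1 factor T-bet, was lower at 5.42 against 1.86. The list had a median of -0.68 over 9 genes, with 4 lower and 0 higher.

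Of 8 T cell-attracting chemokine genes that passed, 5 were lower. Ccl5, a chemokine of activated T cells and macrophages, was at 223 FPKM in the deficient and 34.1 in the overexpressing anti-PD-1 library, and at 41.5 and 35.4 in the untreated ones, so 1 library was high and 3 were alike. Its fold was 6.54. Cxcl9, an interferon-γ-induced ligand of CXCR3, was at 219 and 87.5 FPKM, against 110.2 and 106. Cxcl10 and Cxcl11, ligands of the same receptor that type I interferon also induces, were at 179 against 107 (-0.73) and 17.6 against 16.4 (-0.09). Ccl3, Ccl4 and Xcl1, which activated lymphocytes release, had ratios of -1.72, -1.20 and -1.47. Of 10 genes listed none was higher, with a median of -1.25 beside -0.18 untreated. The receptor Cxcr6, carried by tissue-resident T cells, was at 11.1 against 1.92 FPKM, though its model overlaps that of Fyco1. Cxcr3 had a ratio of -0.999, at the edge of the size.

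Myeloid chemokines went separate ways. Ccl8, a chemokine of macrophages, was at 986 FPKM in the deficient and 189 in the overexpressing anti-PD-1 library, against 253 and 292 in the untreated ones, a ratio of -2.38. Its close relatives Ccl7 and Ccl12 were nearly equal in the treated pair, at 92.7 against 92.9 and 156 against 157 FPKM. Ccl2, the main monocyte attractant, and its receptor Ccr2 had ratios of 0.28 and 0.31, and Ccl6, a chemokine of mouse macrophages, was at 105 against 208 FPKM (0.98). The list median was 0.11 over 10 genes with Ccl8 alone past the size. Cxcl13, which guides B cells and follicular helper T cells, was at 23.8 against 1.43 FPKM, the lowest ratio of any chemokine at -3.35, and Ccl11, an attractant of eosinophils, at 11.5 against 4.53. Neutrophil genes had a median of 0.05 over 7 genes, with Csf3r, the receptor of G-CSF, lower (-1.22) and S100a8 and S100a9, calgranulins, on the other side (0.44 and 0.52).

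**Figure D2:**
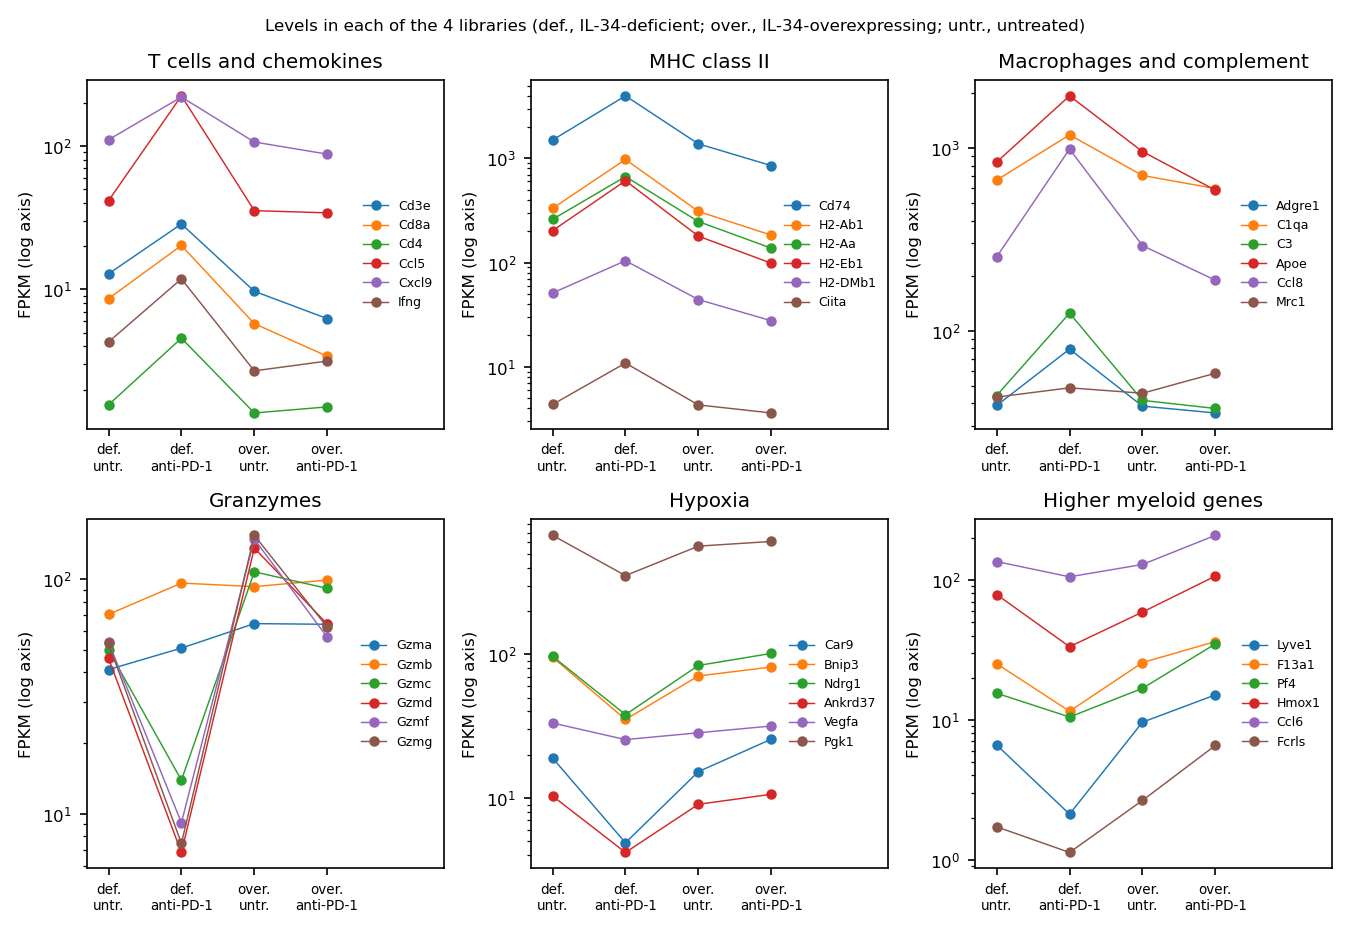
FPKM (log axes) of 36 genes in the 4 libraries, 1 point a library and gene, with thin lines that only join the points of a gene. The deficient anti-PD-1 library is the highest for T cell, chemokine and MHC class II genes, with Ccl5 at 223 FPKM, and the lowest for granzymes C to G and hypoxia genes, with Car9 at 4.89 FPKM.

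Interferon-related genes had mostly negative ratios, of a size that depended on the kind of gene. Ifng, which encodes interferon-γ, was at 11.8 FPKM in the deficient and 3.16 in the overexpressing anti-PD-1 library, and at 4.30 and 2.70 in the untreated ones. It was the only 1 of 11 genes of its signalling chain past the size (-1.62). Irf1, a transcription factor that the signal induces, had a ratio of -0.62, whereas the receptor chain Ifngr2 and the kinases Jak1 and Jak2 had 0.06, -0.01 and 0.10. All 10 guanylate-binding protein genes, effectors of cell-autonomous defence, had negative ratios, with a median of -0.88 and Gbp8 and Gbp11 past the size (-1.40 and -1.05). The 10 immunity-related GTPases had a median of -0.80, with Igtp at 190.0 against 101 FPKM. Gvin1 alone among them was past the size, and its model overlaps that of Gm4070, which went the other way (-2.97 against 1.70), so how their reads divide is uncertain. The 28 genes named for type I interferon had a median of -0.44 with 26 ratios below 0 and 0 past the size. Of all 11735 genes, 5071 had ratios below 0. Oas2, an antiviral enzyme, was at 30.03 against 19.6 FPKM, Isg15 at 101 against 77.3 and Rsad2 at 9.08 against 10.4. Many of these genes respond to both kinds of interferon. In the untreated pair the medians of the same 3 groups were -0.11, -0.06 and -0.20.

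The promoter of Gbp5 is shown for the guanylate-binding proteins, as all 4 of their promoters with a window held the interferon-stimulated response element. It was read from RefSeq on GRCm38.p6, plus strand, chr3:142496684-142496983. Gbp5 was at 56.5 against 37.9 FPKM, and its ratio of -0.56 was the nearest to 0 of the 10 genes. Capitals mark the letters GAAANNGAAA, the core of that element, on either strand, and TTCNNNGAA, the gamma-activated site of interferon-γ-induced promoters, and the matches do not overlap.
Gbp5: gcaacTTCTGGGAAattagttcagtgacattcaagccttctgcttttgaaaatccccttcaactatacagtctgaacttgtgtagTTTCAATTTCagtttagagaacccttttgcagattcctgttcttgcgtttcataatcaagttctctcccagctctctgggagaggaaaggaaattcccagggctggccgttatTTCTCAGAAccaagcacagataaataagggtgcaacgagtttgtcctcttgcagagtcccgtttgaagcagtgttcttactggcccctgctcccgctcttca
GAAANNGAAA stood in 3.35% of all 8972 windows, in 5 of 6 windows of immunity-related GTPases, in 11 of 21 of type I interferon genes and in 10 of 193 (5.18%) of the genes lower by size. TTCNNNGAA stood in 7.13% of all windows and in 10.9% of those of the lower genes. It stood in 2 of 4 windows of guanylate-binding proteins, 4 of 6 of immunity-related GTPases and 0 of 4 of T cell-attracting chemokines.

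Sensors of nucleic acids and bacteria had medians nearer 0. Cytosolic sensors had a median of -0.37 over 11 genes with 0 past the size, Toll-like receptors and adaptors -0.40 over 15 genes with Unc93b1, the carrier of endosomal receptors, alone past it (-1.04), and inflammasome genes -0.41 over 10 with 0 past it. Tlr9, the receptor of unmethylated DNA, was at 11.4 against 5.25 FPKM, while Tlr4, the receptor of bacterial lipopolysaccharide, was at 8.08 against 8.23. NF-κB components and feedback genes had a median of -0.13 and genes of the TNF family one of -0.38, with Ltb, a lymphotoxin chain, lower at 28.2 against 10.8.

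Genes shared by macrophages had negative ratios without exception, 2 of 16 past the size, while 5071 of all 11735 genes had a negative ratio. Adgre1, which encodes F4/80, was at 79.2 FPKM in the deficient and 35.4 in the overexpressing anti-PD-1 library, against 38.9 and 38.6 in the untreated ones. Lyz2, lysozyme of macrophages and neutrophils, was at 4338 and 2338 FPKM, against 2587 and 2571, and Aif1, an actin-binding protein of macrophages, at 72.8 and 35.0, against 38.8 and 38.2. In each, 1 library was high and the other 3 were close. The 16 ratios ran from -1.14 to -0.43 with a median of -0.77. The deficient anti-PD-1 library was highest in all 16, against 31% of all genes. In the untreated pair the median of the 16 was -0.03. Fcgr4, an activating Fc receptor, had a ratio of -1.16, beyond that of the inhibitory Fcgr2b (-0.43).

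Complement genes were lower in 9 of the 19 that passed. C3, the hub of the cascade, was at 125 FPKM in the deficient and 37.5 in the overexpressing anti-PD-1 library, against 44.1 and 41.5 in the untreated ones. C1qa, a chain of the recognition molecule C1q that tumour macrophages make, was at 1179.7 and 599 FPKM, against 667 and 707. Cfb, factor B of the alternative pathway, and C4b, a classical pathway component, had ratios of -1.16 and -1.22, and the proteases C1ra and C1s1, largely of stromal origin, -1.32 and -1.31. Of 19 genes 9 were lower and 0 higher, with a median of -0.98 beside -0.04 untreated, while the receptor C5ar1 had a ratio of -0.01.

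Some cholesterol-handling genes of macrophages were lower. Apoe, the lipoprotein of cholesterol efflux, was at 1928 FPKM in the deficient and 587 in the overexpressing anti-PD-1 library, against 836 and 956 in the untreated ones. Nr1h3, which encodes the sterol receptor LXRα, and Abcg1 and Abca1, cholesterol pumps under its control, had ratios of -1.40, -1.44 and -0.85, and Lpl, a lipase, -1.21. The same list held genes that were nearly equal, among them Spp1, which encodes osteopontin (0.06), Lgals3 (0.11) and Cd36 (-0.06). Its median was -0.19, with 4 of 14 lower and 0 higher. Cholesterol synthesis, a task of nearly all cells, had a median of 0.01 over 18 genes with 0 past the size.

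Mast cell genes moved with the same library. Tpsb2, a tryptase of mast cells, was at 132 FPKM in the deficient and 40.8 in the overexpressing anti-PD-1 library, against 35.7 and 38.9 in the untreated ones, and Cpa3, their carboxypeptidase, at 49.6 and 23.5, against 16.2 and 15.2. Of 11 genes 4 were lower (Tpsb2, Tpsab1, Mcpt4 and Cpa3), and all 11 had negative ratios, as had 5071 of all 11735 genes. The median was -0.87 (-0.46 with a pseudocount of 5), beside 0.14 in the untreated pair. Of the 11, 2 passed only through the deficient library, and the 9 that passed in both had a median of -0.95. The summed level of the mast cell genes was 519 FPKM in the deficient and 212 in the overexpressing anti-PD-1 library. These are genes of mast cells of connective tissue, which also reside in skin, and the library with the highest values is the one with keratin transcripts. Whether skin in that sample gave the higher mast cell values was not tested. Conventional dendritic cell genes had a median of -0.07 over 12 genes with 0 past the size. Plasmacytoid dendritic cell genes had one of -0.73 over 6, with Klk1 alone past the size. Of these 6, 2 passed only through the deficient library, and the 4 that passed in both had a median of -0.45.

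Scavenger receptors and related genes of resident-like macrophages did not follow the pan-macrophage genes. Lyve1, a hyaluronan receptor of perivascular macrophages and lymphatic vessels, was at 2.12 FPKM in the deficient and 15.1 in the overexpressing anti-PD-1 library, and at 6.60 and 9.61 in the untreated ones. F13a1, which encodes a subunit of coagulation factor XIII and marks a subset of macrophages, was at 11.5 and 36.2 FPKM, against 25.1 and 25.6. Both were lowest in the deficient and highest in the overexpressing anti-PD-1 library, with ratios of 2.37 and 1.57. Mrc1, the mannose receptor, was at 48.6 against 58.4 FPKM (0.26) and Cbr2, a carbonyl reductase of such macrophages, at 26.0 against 39.2 (0.57). Timd4, a phosphatidylserine receptor, was lower (-1.06), and Cd163 and Siglec1 had -0.66 and -0.60. The list median was 0.08 over 12 genes, with 2 higher and 1 lower, and it changed sign with a stricter minimum. Alternative activation genes had a median of 0.01 over 8 with 0 past the size, Arg1, arginase of suppressive myeloid cells, being at 122 against 133 FPKM.

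Other higher genes with known myeloid roles were Fcrls, an Fc receptor-like gene of mouse microglia and macrophages (1.13 against 6.55 FPKM), Pf4, platelet factor 4 (10.5 against 34.8), Mmp12, the elastase of macrophages (1.56 against 6.83), and Ltb4r1, the leukotriene B4 receptor (1.90 against 5.43). Hmox1, which breaks heme down, was at 33.3 FPKM in the deficient and 106 in the overexpressing anti-PD-1 library, against 78.5 and 58.8 in the untreated ones. The deficient anti-PD-1 library was the lowest for Hmox1 and Pf4, and the overexpressing one the highest. Serpinb2, an inhibitor of plasminogen activation, had a ratio of 2.14 and passed only through the overexpressing library. Of 12 plasminogen, coagulation and platelet genes 4 were higher and 0 lower, with a median of 0.34, or 0.88 with a minimum of 5 FPKM. NRF2 targets, among which Hmox1 is often counted, had a median of 0.12 over 9 genes and 0 past the size, and the heme and iron list had a median of -0.10 with Slc11a1, an iron carrier of phagosomes, lower (-1.01). Haemoglobin transcripts Hba-a1 and Hbb-bs were at 30.3 against 47.5 and 33.4 against 57.1 FPKM, the only 2 of 6 red blood cell genes that passed, both highest in the overexpressing anti-PD-1 library. Their part in the Hmox1 values was not tested.

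**Figure D3:**
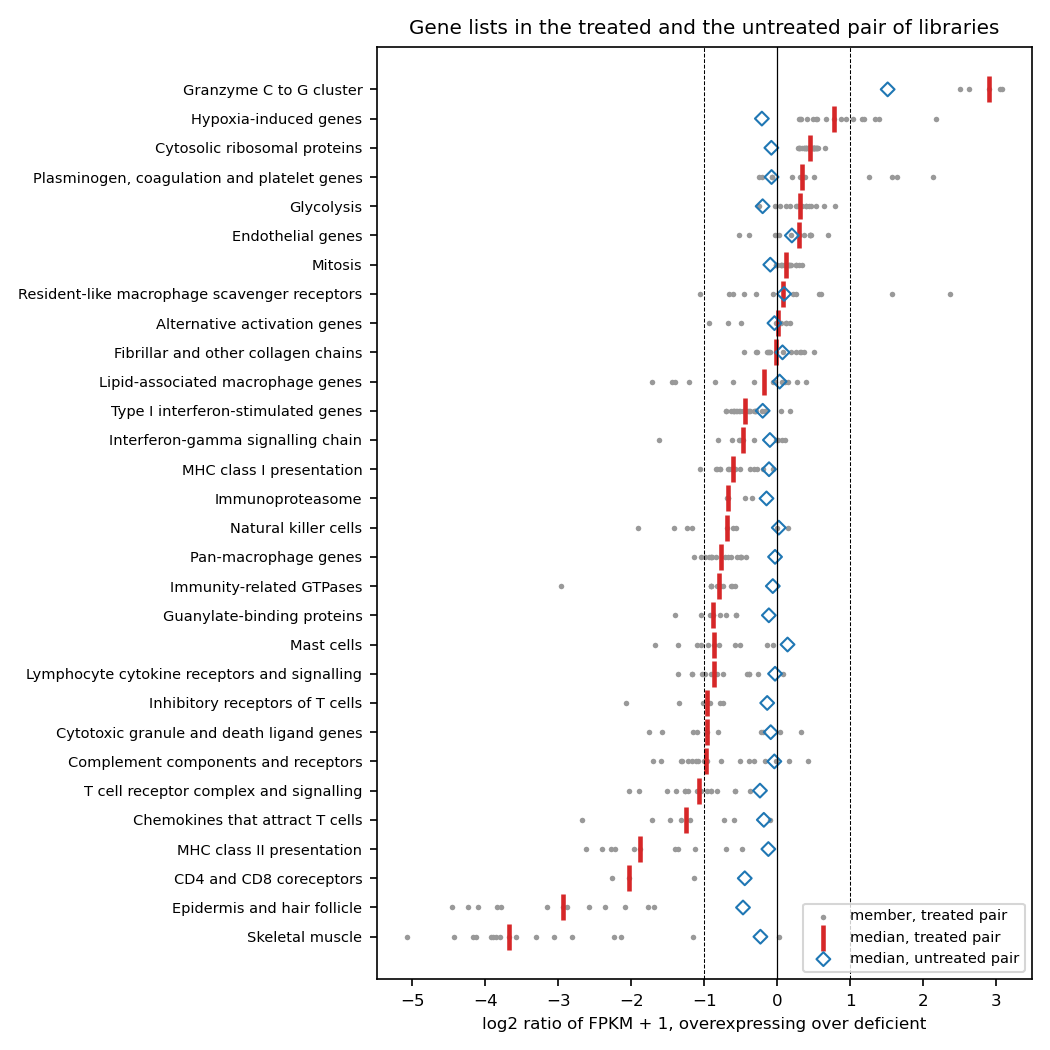
Log2 ratio of FPKM + 1, overexpressing over deficient, for members of 30 gene lists in the anti-PD-1 pair (grey points, red bar at the median) and the list's median in the untreated pair (blue diamond), with dashed lines at -1 and 1. Medians of the anti-PD-1 pair run from -3.67 for skeletal muscle to 2.91 for granzymes C to G, while those of the untreated pair run from -0.47 for epidermis to 0.20 for endothelial genes, with granzymes C to G at 1.51.

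Hypoxia-induced genes had ratios above 0 in all 17 members, against 6664 of all 11735 genes. Of the 17, 1 passed only through the overexpressing library. Hypoxia-induced genes are those that the factor HIF-1 switches on when oxygen is scarce. Car9, a carbonic anhydrase that exports acid, was at 4.89 FPKM in the deficient and 25.7 in the overexpressing anti-PD-1 library, and at 19.0 and 15.3 in the untreated ones. Bnip3, a mitophagy receptor, was at 35.2 and 81.5 FPKM, against 95.2 and 70.6, and Ndrg1, a stress-response gene, at 38.0 and 101, against 96.8 and 83.5. In all 3 the deficient anti-PD-1 library was low and the other 3 libraries were high, with the untreated deficient library above the untreated overexpressing one. Ankrd37 (1.16), Adm, a vasodilator (1.34), and P4ha2, a collagen prolyl hydroxylase (1.04), were also past the size. The 17 ratios ran from 0.30 for Vegfa to 2.18 for Car9, and 6 were higher. The deficient anti-PD-1 library was the lowest of 4 in all 17, against 45.8% of all genes. The list median was 0.78 in the treated and -0.21 in the untreated pair. Ndufa4l2, a HIF-1 target of the respiratory chain (2.12 against 10.4 FPKM), and Apln, an angiogenic peptide (11.9 against 26.3), stood outside the list and were higher too, though the model of Ndufa4l2 overlaps that of Shmt2.

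Promoters of Car9 and Bnip3 are shown as examples from the hypoxia list, since both genes were past the size and both windows held ACGTG on at least 1 strand. Both windows were read from RefSeq on GRCm38.p6, Car9 on the plus strand at chr4:43506776-43507075 and Bnip3 on the minus strand at chr7:138909457-138909756. Capitals mark ACGTG or its reverse complement, the core of the hypoxia response element, and in Bnip3 a match on each strand overlaps in CACGTG.
Car9: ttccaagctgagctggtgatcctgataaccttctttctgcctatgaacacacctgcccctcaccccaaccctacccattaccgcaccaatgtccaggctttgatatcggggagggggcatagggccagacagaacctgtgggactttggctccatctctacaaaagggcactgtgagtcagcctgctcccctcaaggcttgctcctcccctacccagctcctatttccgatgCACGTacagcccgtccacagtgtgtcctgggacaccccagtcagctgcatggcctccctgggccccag
Bnip3: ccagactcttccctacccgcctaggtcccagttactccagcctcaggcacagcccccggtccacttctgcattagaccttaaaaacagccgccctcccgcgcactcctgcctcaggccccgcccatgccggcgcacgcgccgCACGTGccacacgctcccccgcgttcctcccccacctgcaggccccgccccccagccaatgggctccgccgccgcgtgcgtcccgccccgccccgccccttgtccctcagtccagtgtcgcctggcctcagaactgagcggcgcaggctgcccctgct
ACGTG stood in 25.9% of all 8972 windows, in 9 of 13 windows of hypoxia-induced genes and in 8 of 16 of glycolysis genes. Among all genes higher by size it stood in 6 of 32 windows (18.8%), and among the lower ones in 27 of 193 (14%).

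Glycolysis genes, which HIF-1 also drives, had a median nearer 0 with 0 past the size. Pgk1, the first ATP-forming enzyme of the pathway, was at 352 FPKM in the deficient and 608 in the overexpressing anti-PD-1 library, against 669.8 and 563.7 in the untreated ones. Slc2a1, the glucose carrier GLUT1, and Ldha, lactate dehydrogenase, had ratios of 0.64 and 0.47. The list had a median of 0.32 over 16 genes and -0.20 in the untreated pair. The deficient anti-PD-1 library was the lowest of 4 in 12 of 16, against 45.8% of all genes. Endothelial genes had a median of 0.30 (0.16 with a pseudocount of 5) over 13 genes, with Cdh5, VE-cadherin, at 7.63 against 12.99 FPKM, beside 0.20 in the untreated pair. Of p53 targets, Cdkn1a, the cell cycle inhibitor p21, had a ratio of 0.60 and the list of 15 a median of 0.27. Hspa1a and Hspa1b, the inducible HSP70 genes, were higher (1.34 and 1.26), Hspb1, a small heat shock protein abundant in muscle and skin, was lower (-1.76), and the other 8 heat shock genes were within the size. Hspa1a and Hspa1b are near-identical copies, so how their reads divide is uncertain.

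Ribosomal protein genes each differed little, mostly toward higher levels. Rps3, a protein of the small subunit, was at 613 FPKM in the deficient and 966 in the overexpressing anti-PD-1 library, against 995 and 939 in the untreated ones. Of 84 such genes by symbol 80 had ratios above 0 and 4 below, with a median of 0.42. Ratios were above 0 for 6664 of all 11735 genes. The 38 genes on the list had ratios above 0, from 0.28 to 0.65, with a median of 0.45. All 38 were lowest in the deficient anti-PD-1 library, as were 45.8% of all genes. Together the 38 made up 9.82% of FPKM in that library. They made up 12.6%, 12.8% and 12.7% in the overexpressing anti-PD-1, untreated deficient and untreated overexpressing libraries. Of the 20 largest FPKM differences upward 16 were ribosomal protein genes by symbol, while the 2 largest were the translation factor Eef1a1 with 2973 FPKM and Tpt1, a growth-related tumour protein, with 1631. Ribosome biogenesis genes had a median of -0.05 over 16, mitochondrial respiratory chain genes 0.04 over 24. FPKM is relative to the whole library, so a lower level of these genes and a higher level of other transcripts cannot be told apart.

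Proliferation and stromal genes had medians near that of all genes, 0.04. Mki67, a marker of dividing cells, was at 29.6 against 30.8 FPKM, and the 20 mitosis and 20 DNA replication genes had medians of 0.12 and -0.03 with 0 past the size. Myc was at 48.7 against 47.3 FPKM and Vim, vimentin, at 2638 against 3047. Medians of 0.14 for transition regulators, 0.06 for Wnt targets, -0.02 for collagen chains, -0.17 for fibroblast and matrix genes, -0.16 for the unfolded protein response, -0.04 for the integrated stress response and -0.14 for fatty acid synthesis came with 0 members past the size in each. Small ratios could still share a sign. All 14 unfolded protein response genes had ratios below 0 and were highest in the deficient anti-PD-1 library, as were 31% of all genes. Of 10 transition regulators 9 had ratios above 0 and 9 were lowest in that library, as were 45.8% of all genes. Col1a1, the main collagen chain, was at 127 against 104 FPKM. Dpt, dermatopontin of dermal fibroblasts, was the lowest of the fibroblast list at 19.97 against 9.93. Of 12 simple epithelium genes 3 passed, 2 of them only through the deficient library, and Krt20, a keratin of gut and skin cells, was lower at 3.13 against 0.976 FPKM. The defining markers were near 0 in the treated libraries, with Krt8 listed at 0 and at 0.0809 FPKM and Epcam at 0.384 and 0.163. The share of carcinoma cells in the libraries cannot be read from these markers. Of genes used as references, Actb was at 3209.7 against 3176 FPKM and Tbp at 15.98 against 16.7. Of the 78 lists, 9 had a median at or beyond -1, 1 had a median of at least 1, and 32 lay between -0.2 and 0.2.

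Along the genome, genes past the size formed runs in which neighbours were less than 1 Mb apart. On chromosome 17, between 34135671 and 36032701, 15 lower genes lay in the MHC region, among them 6 class II genes, H2-Ea-ps (919 against 209.5 FPKM), C4b, Cfb, C2, Aif1, Ltb and H2-T23. H2-Ea-ps is named a pseudogene after the reference strain, whereas BALB/c mice express it as a class II alpha chain. On chromosome 6, between 124512621 and 125237027, 7 lower genes were 4 genes of the complement proteases C1r and C1s with Cd4, Lag3 and Cd27, and between 129591811 and 129775849 Klrd1, Klrk1 and Klrc1 lay with Gm156. Keratin genes made runs on chromosomes 11 and 15, and Ly6a, Ly6c1, Ly6c2, Ly6d and Ly6i lay within 74762056 to 75111949 of chromosome 15. The runs, with Gm156 and the LY6 genes, were chosen after their values were seen. Ly6a, which encodes Sca-1, was at 574 against 243 FPKM. Of gene families also chosen then, 8 GIMAP genes of lymphocytes had a median of -0.95 with 3 lower, and 9 MS4A genes had -0.58 with 3 lower. The 7 CLEC4 genes had -0.53 with 2 lower, and 176 solute carriers had -0.10 with 1 lower. The 18 collagen and 77 mitochondrial ribosomal protein genes had medians of 0.03 and 0.05 with 0 past the size. Chromosome 7 held the largest share of lower genes, 43 of 907 (4.74%), and chromosome 12 the smallest, 2 of 402 (0.498%), against 2.37% over all. Clustered families place several related genes at 1 site, so genes of a run are not separate observations.

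Acute-phase genes and mediators of inflamed macrophages were lower in part. Saa3, a serum amyloid of macrophages and stroma, was at 30.9 FPKM in the deficient and 12.9 in the overexpressing anti-PD-1 library, against 15.5 and 7.74 in the untreated ones. Serpina3g, a protease inhibitor of activated lymphocytes and myeloid cells, was at 149 and 62.4 FPKM, against 67.9 and 68.1, though it is a close copy of Serpina3f and their models overlap. Of 7 genes that passed 4 were lower, with a median of -1.05. Irg1, which makes itaconate in activated macrophages, was at 34.3 against 15.1 FPKM and Tnf at 7.72 against 3.44, whereas Il1b, interleukin-1β, was at 10.6 against 15.1 and Ptgs2, the inducible cyclooxygenase, at 11.2 against 15.4. The list of such mediators had a median of -0.31 over 9 genes with Irg1 alone past the size. Lysosomal genes had a median of -0.32 over 16 with 0 past the size, Ctsl, cathepsin L, being at 501 against 623 FPKM and Ctsh, cathepsin H, at 58.5 against 33.5. Psap, which encodes the precursor of lysosomal saposins, was among the 20 largest downward differences at 1019 against 587 FPKM.

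A few more genes of matrix, lipid mediators and adhesion were higher. Mmp13, a collagenase, was at 0.731 FPKM in the deficient and 3.31 in the overexpressing anti-PD-1 library, against 3.28 and 2.83 in the untreated ones, so the deficient anti-PD-1 library alone was low. Of 14 metalloproteinase and inhibitor genes 2 were higher, Mmp12 and Mmp13, with a median of -0.05, and Mmp14, the membrane-bound collagenase, was at 101 against 80.5 FPKM. Ltc4s, which makes leukotriene C4, was the only 1 of 11 prostaglandin and leukotriene enzymes past the size, at 2.64 against 6.29, and Tbxas1, thromboxane synthase, was at 28.8 against 15.2. Itgb4, an integrin of epithelial anchorage, was at 8.67 against 20.6 FPKM, with 10.2 and 15.2 in the untreated deficient and overexpressing libraries. Cldn9, a tight junction protein, was at 0.977 against 5.10, Ifitm6, of the interferon-induced transmembrane family, at 2.75 against 7.37 and Serpinb9b, of the serpin family, at 2.55 against 7.01. All 4 of these were lowest in the deficient anti-PD-1 library, as were 45.8% of all genes.

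Some extreme ratios belong to models that overlap another model, and their values are uncertain. Oaz1-ps, a pseudogene within Oaz1, was at 22.7 against 0.462 FPKM. BC002163, which overlaps Ndufs5, was at 0.0148 against 13.9, and Tgoln2, which overlaps Tgoln1, at 0.517 against 6.34. In all, 33 of the genes past the size overlapped another model. H19, an imprinted non-coding RNA that is abundant in muscle, was at 12.0 against 0.323 FPKM and moved with the muscle genes, and Rmrp, the RNA of a ribonuclease complex, at 0.452 against 6.43.

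Set beside the untreated pair, the treated ratios spread more widely. The 5th to 95th percentiles of the same 11735 genes ran from -0.23 to 0.19 without treatment, against -0.68 to 0.39 with anti-PD-1. Of the 278 lower genes 228 had a negative ratio in the untreated pair, but only Fam25c was past the size there. Among the 46 higher genes 25 had a positive ratio without treatment. Over all 11735 genes the median untreated ratio was -0.03, so a negative ratio was the more common sign among all genes in the untreated pair. The share of all genes with a negative untreated ratio is not given here. Hypoxia, glycolysis and ribosomal protein genes had medians of opposite sign in the 2 pairs, while the T cell receptor, coreceptor, MHC class II, T cell-attracting chemokine, guanylate-binding protein, immunity-related GTPase and type I interferon lists had the same sign with smaller size in the untreated pair. With 4 libraries in 4 groups, the difference between the pairs was not tested.

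**Figure D4:**
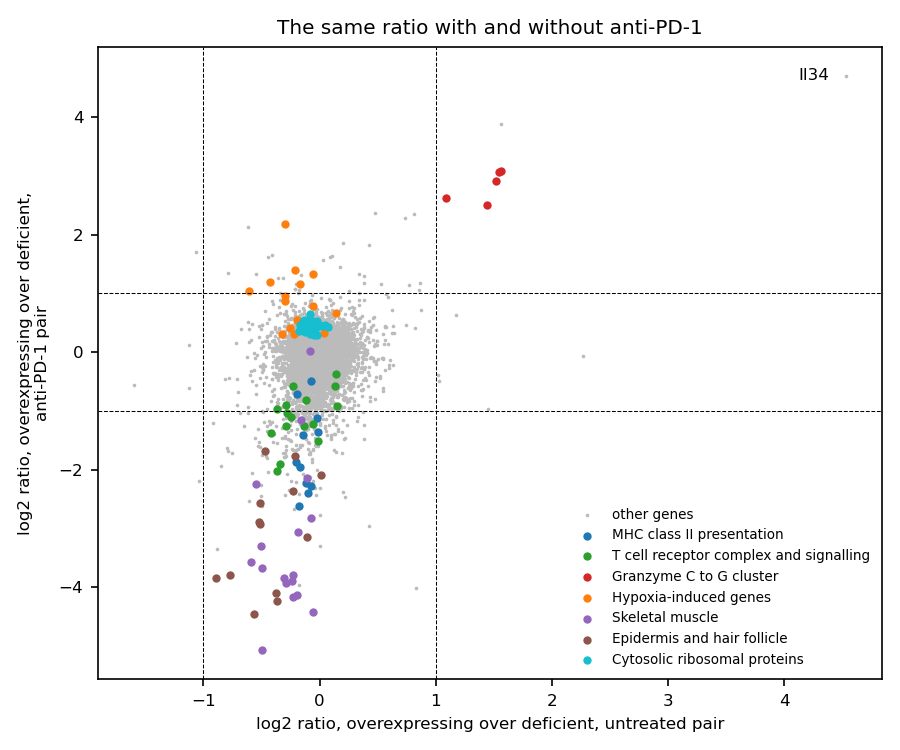
Log2 ratio of FPKM + 1, overexpressing over deficient, in the untreated pair (x) and in the anti-PD-1 pair (y) for the 11735 genes, 1 point a gene, with dashed lines at -1 and 1. Points spread along the vertical axis, with Il34 at 4.53 and 4.71 and the granzyme C to G genes past 1 on both axes.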

How the data were processed

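The authors deposited 1 table of FPKM values for 23745 gene rows and 4 libraries, made per the submitters' processing notes with CASAVA 1.8.2, TopHat2 2.1.0, Cufflinks 2.2.1 and the mm10 build. RNA was extracted with a PureLink kit and libraries made with a strand-specific SureSelect kit, per the labels' protocols. No source used here gives the strand setting of the counting. Reads shared by near-identical or overlapping genes may be divided among them. Starts in the table lie 1 below those of RefSeq, so coordinates are printed from base 1.

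From these values, 831 rows of short RNAs and 1 emptied line were left out, the row with the highest mean was kept for each symbol, and log2 ratios of FPKM + 1 were taken, which understate differences of low genes. Folds are plain FPKM ratios. Of 987 genes on 78 lists, all but 1 (Ly6g) were matched to a gene row. Members, lists and alternatives were chosen with earlier results of these data known. Besides list members, the genes named were the 30 highest and 30 lowest ratios at 5 FPKM or more, the 20 largest differences each way, and genes past the size in both pairs.

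The depth of the libraries is unknown. In 268 of 1148 rows below 0.1 FPKM, the ratio of values within a tolerance of 0.01 put the depth of the overexpressing anti-PD-1 library at 97.0% of the deficient one. FPKM summed to 518464 and 488881 in them. Python 3.11.15, numpy 2.4.6, pandas 2.3.3 and matplotlib 3.10.9 were used, and the scripts were tested on simulated data. Some list members are not reported here.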

Additional observations from a re-analysis of the deposited data

Results flagged for a closer look

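Gm4070 had a ratio of 1.70 in the anti-PD-1 pair and -1.06 in the untreated pair, past the size in opposite directions, and its model overlaps Gvin1, which had -2.97 and 0.42. The hypoxia-induced genes had a median ratio of 0.78 in the anti-PD-1 pair and -0.21 in the untreated pair. Their deficient anti-PD-1 level was the lowest of 4 libraries in all 17, against 45.8% of all genes. In both cases the ratios had opposite signs in the treated and the untreated pair of libraries, and the difference was not tested.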

How the results depend on the processing

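Counts of genes past the size followed the weight given to low values. A pseudocount of 0.1 gave 476 lower and 80 higher genes, whereas 108 were lower and 18 higher when 5 was added instead. With at least 5 FPKM in either library 174 were lower, with at least 1 FPKM in both 163, and after rescaling to TPM, which enlarges values beside the pseudocount, 507 were lower and 60 higher. With the untreated deficient library in place of the treated one, chosen after seeing the data, 45 were lower and 9 higher. Without the tissue lists 247 were lower, and without a further set of tissue genes picked by description after seeing the data 206, both with 46 higher.

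Medians of 22 lists were recomputed under 10 alternatives. Of 220 values 203 kept their sign within 1.5 times the reported median, 15 moved further and 2 changed sign. The 15 include T cell receptor, cytotoxic, mast cell and endothelial genes with a pseudocount of 5 (-0.61, -0.41, -0.46 and 0.16), and cytotoxic and plasminogen genes with a minimum of 5 FPKM (-0.52 and 0.88). The other 9 were lists with medians near 0, namely collagens, mitosis, DNA replication and the resident-like macrophage scavenger receptors. The 2 values that changed sign also belonged to these scavenger receptors. They were at -0.0535 with at least 5 FPKM in either library and with at least 1 FPKM in both. No paired analysis was possible because each group has 1 library. With 1 library a side and unknown depth, no interval can be given, and leaving out a library leaves no comparison.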
